A study of Mus musculus with 8 samples.

Results

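Motile cilia genes encode the machinery of the beating cilia that move mucus along the conducting airway, and 42 such genes of the 24307 named on the array are described here. They comprised 6 regulators, 13 dynein arm genes, 8 genes of the radial spokes and central pair, 9 genes of the doublet wall, molecular ruler and nexin link, and 6 other genes known from ciliated cells. The genes were taken by their platform symbol, and each is represented by its brightest probe on average over the 8 arrays. All 42 were measured. They were selected on earlier results of these arrays, in particular the values of E-IAAPs on day 14 against days 4 and 7. The difference between these days is therefore given as a description without a test.

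The cells came from mice carrying SftpCreERT2/+ and Tomatoflox/flox, in which Cre recombinase is made under the Sftpc promoter and tamoxifen turns on the red Tomato label. Control (C) mice had no further allele, whereas experimental (E) mice also carried Fgfr2bflox/flox, so that the receptor isoform Fgfr2b was to be deleted in Sftpc-expressing cells. Both received 1 mg/ml tamoxifen in the drinking water, were 9 to 12 weeks old and, per the labels, of both sexes. Epithelial cells were sorted into Tomato-high alveolar type 2 cells (AT2s) and Tomato-low cells, which the study calls injury activated alveolar progenitors (IAAPs). C-AT2s and C-IAAPs were collected on day 7, and E-AT2s and E-IAAPs on days 4, 7 and 14, with 1 array for each. The labels do not say how many mice gave the cells of an array, and different days stand in for replicates, so p-values measure the spread between these arrays. The label marks cells in which the Sftpc promoter was active at some time, and the labels list all samples as AT2s.

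A ciliated airway cell carries a dense tuft of motile cilia, each built on a centriole-derived basal body. The shaft, or axoneme, holds a ring of microtubule doublets around a central pair. Outer and inner dynein arms pull neighbouring doublets past each other, radial spokes signal between the central pair and the arms, and nexin links hold the doublets together. Foxj1 and the RFX factors turn on these genes, downstream of a program that multiplies centrioles. Alveolar cells have no motile cilia, and ciliated cells lie in the airway epithelium next to club cells.

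Values are log2 array signals. The background level of each array was set at the 95 percentile of 1401 sensory receptor genes, whose expression in lung is not expected, and lay between 6.45 and 7.28 on 7 arrays and at 8.67 on the C-IAAP array. That array stood apart from the others, with correlations of 0.845 to 0.876, and 26.7% of its genes lay above background against 40.8% to 46.5% elsewhere. All 10 AT2 markers were above background on every array. The array signal of Fgfr2, which was between 10.87 and 12.45, does not separate the deleted isoform from others. Both day 14 arrays also differed from the other 6 in sex-linked genes: Xist was 13.52 in E-AT2s and 13.30 in E-IAAPs against 5.94 to 7.28 elsewhere, and the Y-linked Eif2s3y was 2.69 and 2.14 against 10.66 to 11.39. Day 14 and the sex of the mice thus cannot be told apart in either population.

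On day 14, most motile cilia genes stood above their levels on days 4 and 7 in E-IAAPs, and mostly not in E-AT2s. The class medians in E-IAAPs ran from 1.38 for the regulators to 3.94 for the radial spoke and central pair genes. Of the 6 regulators, 4 were at least 2-fold higher. In E-IAAPs the signals of 35 of the 42 genes were at least 2-fold higher than the mean of days 4 and 7 and 0 were 2-fold lower, while 9.37% of all genes were 2-fold higher and 6.53% lower. The median difference was 3.20 on the log2 scale, with a range of -0.48 to 5.72, against -0.01 over all genes. In E-AT2s 6 of the 42 were 2-fold higher on day 14 and 1 was lower, beside 5.67% and 7.28% of all genes, and the median was 0.20. Many of these signals were below background, where they have no order. With every such signal raised to the background level of its array, 32 of the 42 genes were still 2-fold higher on day 14 in E-IAAPs, beside 2.76% of all genes, and 0 were in E-AT2s, beside 0.481%. In such sorted populations more cells with cilia RNA and more of it per cell cannot be told apart. Between days 4 and 7 the E-IAAP levels of the 42 genes differed by a median of 0.04. The numbers of genes above background were 21, 21 and 37 in E-IAAPs on days 4, 7 and 14. They were 12, 12 and 15 in E-AT2s, 13 in C-AT2s and 14 in C-IAAPs.

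**Figure D1:**
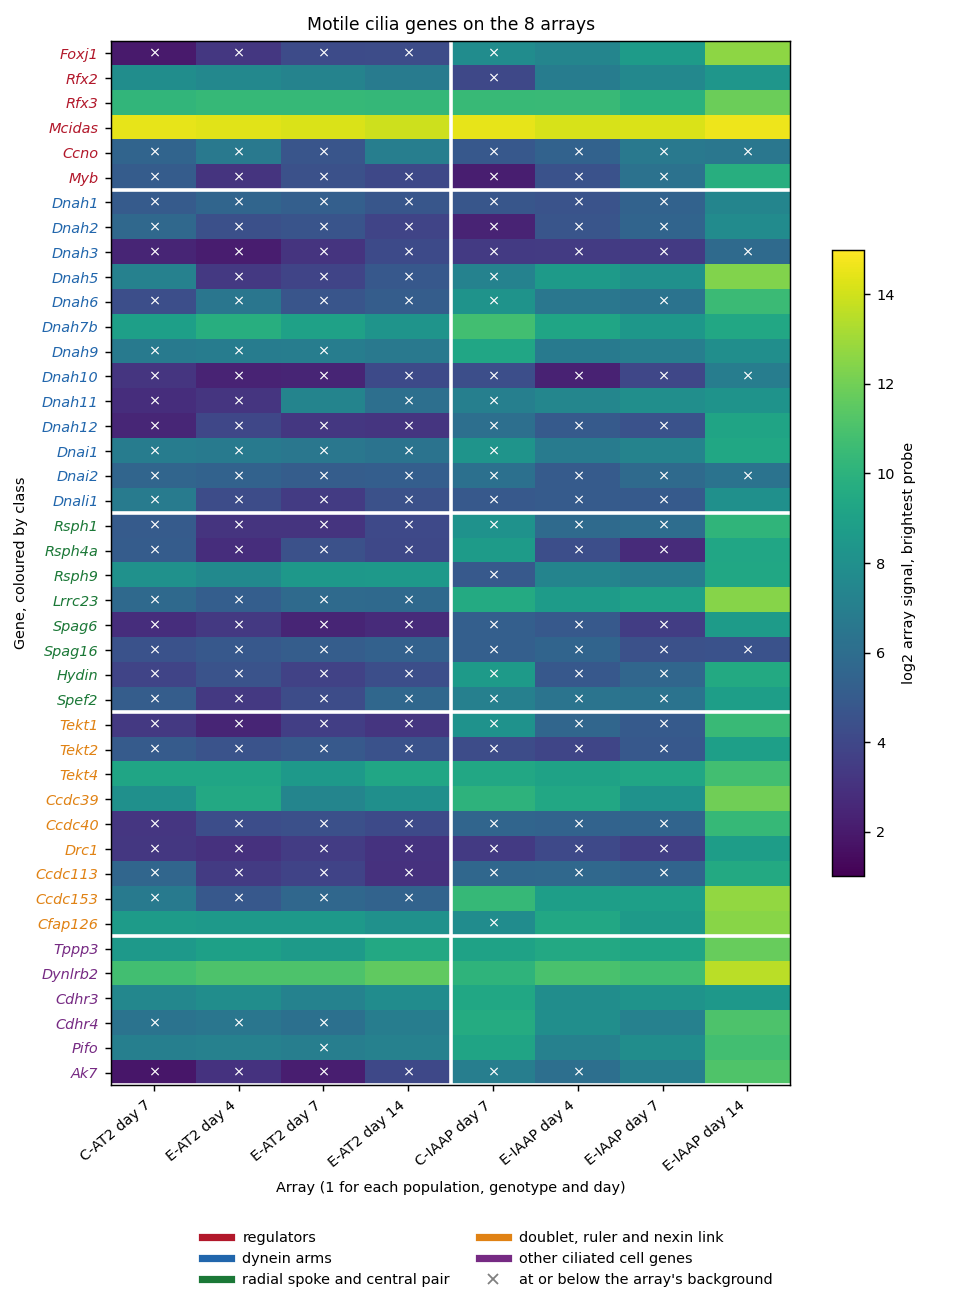
The log2 array signal of each of the 42 genes (rows, grouped and coloured by class) is shown as colour on the 8 arrays (columns), and a cross marks a signal at or below the background level of its array. On the E-IAAP array of day 14, 37 of the 42 genes lie above background, against 12 to 21 on the others.

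E-IAAPs of day 14 held the highest of the 8 signals for 37 of the 42 genes, beside 11.3% of all genes. With signals below background raised as above, 18 of the 42 exceeded every other array by 2-fold or more, beside 0.601% of all genes. Of the other 7 arrays, the C-IAAP array held the highest signal for 22 of the 42, beside 32.8% of all genes. Where every probe of a gene was below background on days 4 and 7, the fold is given as a lower bound, computed from the higher of the background level and the probe's own signal. This held for 15 genes, with bounds of at least 1.64-fold to at least 14.0-fold. A fold was measured for 22 genes and ran from 1.34 to 24.4. The brightest probe of the remaining 5 genes (Ccno, Dnah3, Dnah10, Dnai2 and Spag16) was not above background on day 14 either, so no fold is given. Dimmer probes of Dnai2, at 7.66, and Spag16, at 8.27, were above background on that array.

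**Figure D2:**
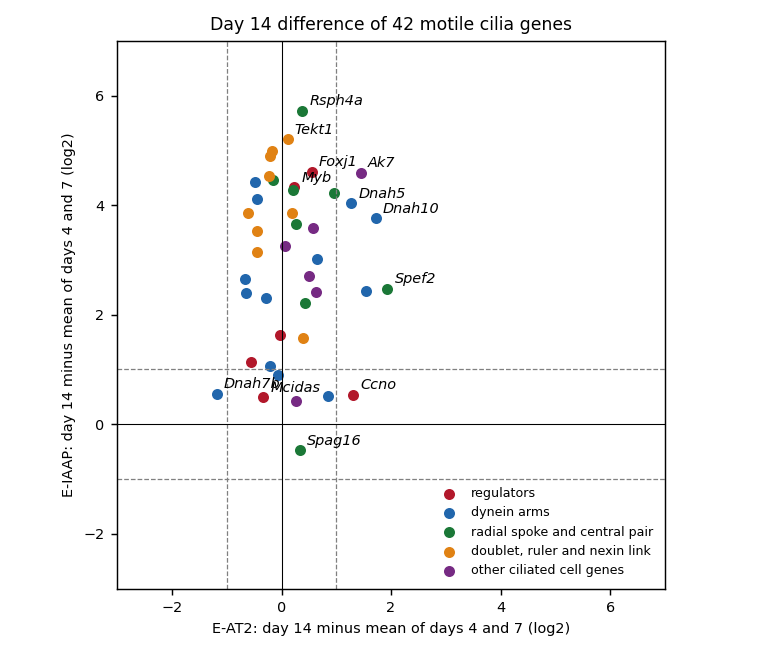
Each point is 1 gene, with the day 14 difference (log2, day 14 minus the mean of days 4 and 7) in E-AT2s on the horizontal axis and in E-IAAPs on the vertical axis, coloured by class; dashed lines mark 2-fold. Along the vertical axis 35 of the 42 genes lie above the 2-fold line, and along the horizontal axis 6 lie beyond it.

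Among the regulators, Foxj1 and Myb differed most in signal. Foxj1, the transcription factor that directs the building of motile cilia, went from 7.35 on day 4 and 8.68 on day 7 to 12.62 on day 14 in E-IAAPs. It was 3.26, 4.19 and 4.27 in E-AT2s, 2.03 in C-AT2s and 7.79 in C-IAAPs. The 3 E-IAAP arrays were thus above background and higher than all 4 AT2 arrays, where Foxj1 never rose above it. The C-IAAP signal lay below that array's background, and the day 14 signal was 24.4-fold that of the earlier E-IAAP arrays. Myb, which acts early in the making of multiciliated cells, was 4.52, 6.30 and 9.75 in E-IAAPs. Its other 5 signals lay between 2.15 and 5.10, and day 14 was the sole array above background, at least 8.36-fold over the earlier days.

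The RFX factors changed less. Rfx3, a factor that binds promoters of cilia genes, was 10.51, 9.96 and 11.86 in E-IAAPs and 10.20 to 10.46 on the AT2 and C-IAAP arrays, a 3.08-fold higher level on day 14. Rfx2, its close relative, was 6.86, 7.53 and 8.34 in E-IAAPs, 7.54, 7.27 and 6.85 in E-AT2s, 7.89 in C-AT2s and 4.03, below background, in C-IAAPs. The day 14 signal was the highest of the 8 but exceeded that of C-AT2s by only 0.46. The other probe of Rfx2 was below background on every array, at 4.50 in C-IAAPs and 3.76 in C-AT2s. Mcidas and Ccno, which start the amplification of centrioles, did not reach a 2-fold difference in E-IAAPs. Mcidas gave nearly the same bright signal on every array, 13.95 to 14.64. Its second probe read 6.39 to 7.44 and was below background on every E-IAAP array. Which probe better reads Mcidas was not tested. Ccno was 5.41, 6.64 and 6.57 in E-IAAPs, and its highest signal, 6.99, was on the E-AT2 array of day 14.

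**Figure D3:**
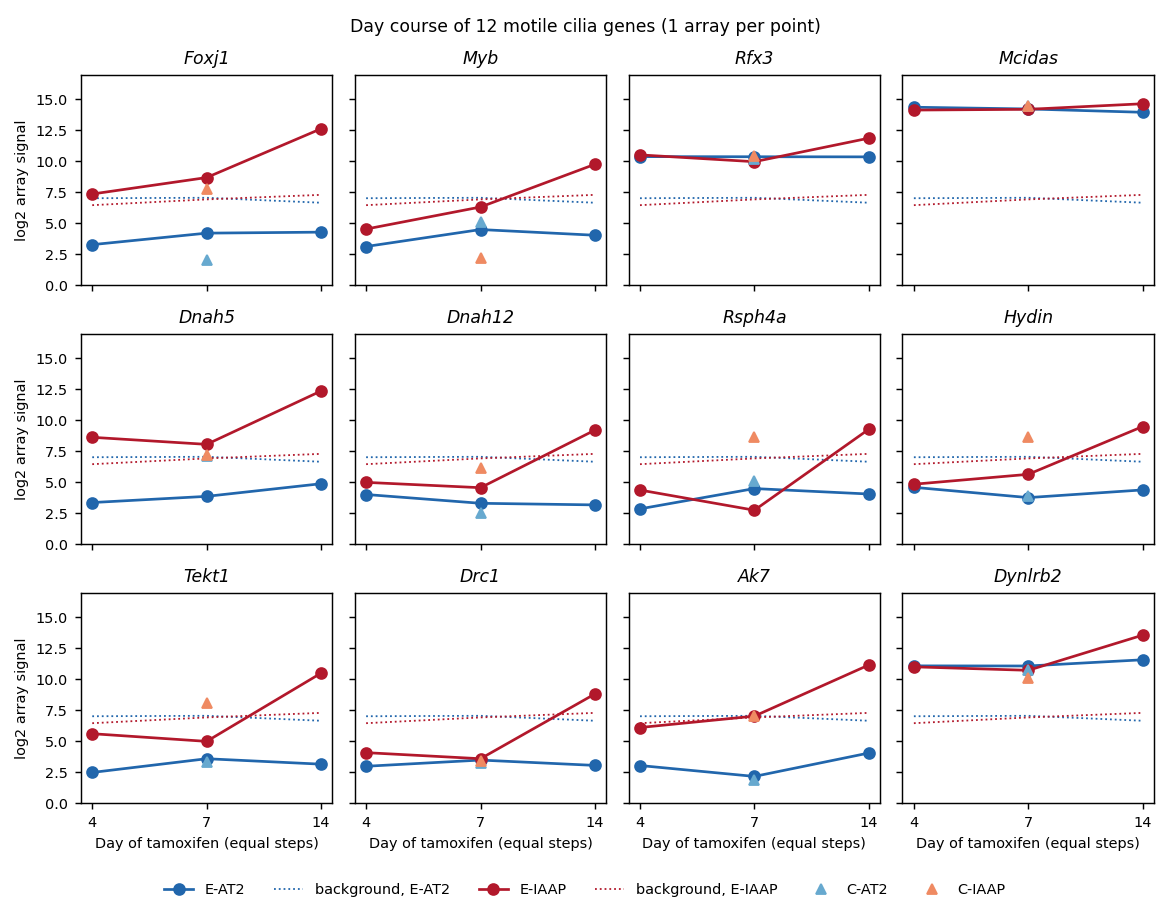
The log2 array signal is plotted against the day of tamoxifen (equal steps) for 12 genes, with circles for E-AT2s and E-IAAPs, triangles for the controls of day 7, and dotted lines for the background levels of the E-AT2 and E-IAAP arrays. Foxj1 of E-IAAPs goes from 8.68 on day 7 to 12.62 on day 14, while Mcidas stays between 13.95 and 14.64.

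RFX factors bind a sequence whose core half-site reads GTTGCC, so the promoters of the members were searched for it. RefSeq windows of 250 bases before to 50 after the start were at hand for 37 of the 42 genes, in 43 windows of build GRCm38.p6. Foxj1, Rsph1, Tppp3, Rsph4a and Dnah3 had none. GTTGCC, on either strand, occurred in 22 of the 37 genes (59.5%), in 33 of 80 other cilia genes (41.2%), and in 14.1% of all 27025 genes with windows. In 15 of the 22 the match began within 50 bases of a start site. The same share was not computed over all genes, so nearness to the start cannot be called particular to these genes. The genes shown are those with a half-site and the largest day 14 differences in signal in E-IAAPs, together with Dynlrb2 and Rfx3, each read so that the half-site, in capitals, runs as GTTGCC.
Tekt1, chr11:72361884-72361905, minus strand: tccgtccgGTTGCCatagagac
Drc1, chr5:30281374-30281395, minus strand: aacaagccGTTGCCaagggaaa
Tekt2, chr4:126325697-126325718, plus strand: cggctctgGTTGCCgagcaacc
Spag6, chr16:16829316-16829337, minus strand: tgctgtcgGTTGCCctggagac
Hydin, chr8:110266956-110266977, minus strand: taccatctGTTGCCacagcaac
Ccdc113, chr8:95534086-95534107, minus strand: tgaggcgcGTTGCCtagacaac
Ccdc153, chr9:44240517-44240538, plus strand: gttttccaGTTGCCtggacaac
Dnah10, chr5:124725057-124725078, plus strand: ctggcgccGTTGCCcaggtccc
Lrrc23, chr6:124779753-124779774, minus strand: ccgcccctGTTGCCataacaac
Cdhr4, chr9:107992462-107992483, minus strand: actctgttGTTGCCtggctagt
Pifo, chr3:106001496-106001517, plus strand: tgtactacGTTGCCaagggaac
Dynlrb2, chr8:116504956-116504977, plus strand: cctgcctgGTTGCCtagcaacg
Rfx3, chr19:28011122-28011143, minus strand: tagcaaccGTTGCCttgtgaat

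In several of these, such as Tekt2, Hydin, Ccdc113 and Dynlrb2, a mirrored AAC follows the half-site after a short gap. GTTGCC followed after 3 to 6 bases by AAC was found in 11 of the 37 genes (29.7%), 9 of the 80 other cilia genes (11.2%) and 1.5% of all genes. A stricter pair, GTTNCC and GGNAAC with up to 3 bases between, was in 1 gene, Pifo (2.7%), against 7.5% of the other cilia genes and 0.9% of all genes. The forkhead letters TGTTTAC occurred in 2 of the 37 (5.4%) against 4.1% of all genes, and in 2 of the 80 other cilia genes. The shorter TGTTTA, which includes these, was in 10 of the 37 (27.0%) against 15.1%, and in 8 of the 80. For both, the share in the other cilia genes was below that in all genes. The half-site was also found in genes whose brightest probe differed by less than 2-fold on day 14. By that probe, 16 of 30 genes with a 2-fold difference held it, and so did 6 of 7 without one. Of these 6, Cdhr3, Dnah7b, Dnai2 and Spag16 had other probes that were at least 2-fold higher, so this split depends on the probe. The motifs were picked after their shares had been looked at, and a match is a run of letters, not a shown binding site.

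**Figure D4:**
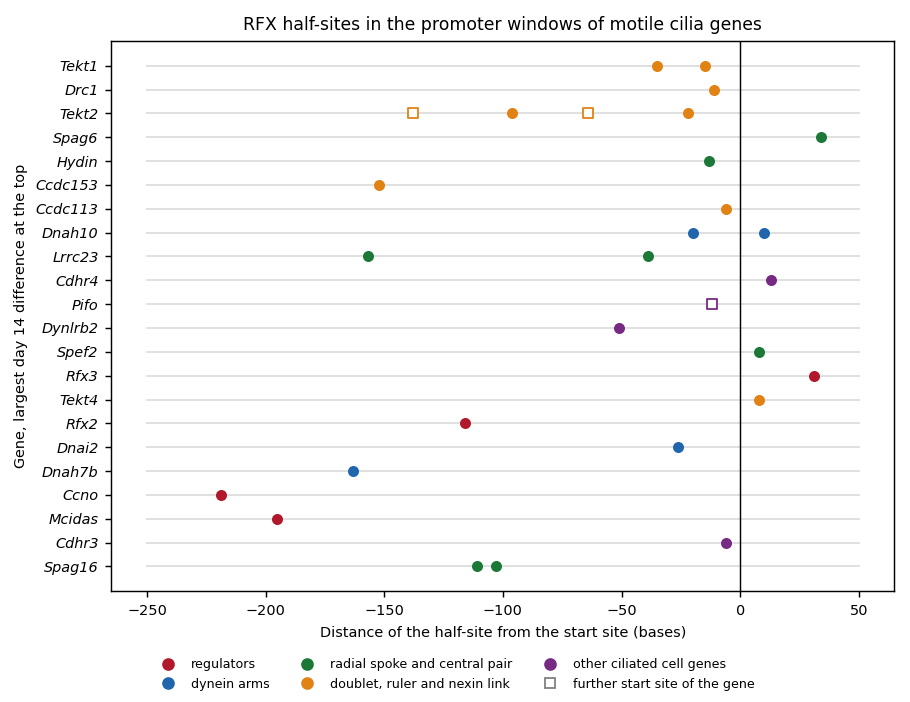
Each point marks the distance in bases between the first base of a GTTGCC match (either strand) and the start site, for the 22 genes with a match, ordered by their E-IAAP day 14 difference; open squares belong to a further start site of the same gene. In 15 of the 22 genes a match begins within 50 bases of a start, a share not computed over all genes.

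The 250 bases before a start of Tekt1, which held 2 half-sites, read as follows on the minus strand, with both half-sites in capitals, the first in its reverse form.
Tekt1, chr11:72361883-72362132, minus strand: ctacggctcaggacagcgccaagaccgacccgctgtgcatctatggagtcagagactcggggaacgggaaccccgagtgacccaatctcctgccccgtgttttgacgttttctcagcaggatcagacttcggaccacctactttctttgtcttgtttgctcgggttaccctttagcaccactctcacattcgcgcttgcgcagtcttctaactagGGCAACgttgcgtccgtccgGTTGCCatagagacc

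Dynein arm genes encode the motors that make cilia bend. In E-IAAPs 10 of the 13 were 2-fold higher on day 14, with a median difference of 2.43, against 3 higher and 1 lower in E-AT2s. Dnah5, a heavy chain of the outer arm, was 8.62, 8.05 and 12.36 in E-IAAPs and 3.35, 3.85 and 4.87 in E-AT2s. It was 7.14 in C-AT2s and 7.20, below background, in C-IAAPs. Every E-IAAP signal exceeded those of the other 5 arrays, and day 14 was 16.3-fold above the earlier days.

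Dnah12, Dnah6 and Dnah10 are heavy chains of the inner arm. Dnah12 was 4.98, 4.55 and 9.20 in E-IAAPs and 2.50 to 6.12 elsewhere, at least 5.72-fold higher on day 14. Dnah6 was 6.57, 6.32 and 10.55, a 17.2-fold difference for which 1 of the 2 earlier arrays was above background. It was 8.17, below background, in C-IAAPs. Dnah10 was 2.36, 4.00 and 6.94, all below background. Among the rest, Dnah1, Dnah2 and Dnali1 left background on day 14 alone, by at least 1.64-fold, 2.10-fold and 2.50-fold. Dnai1, an intermediate chain that anchors the outer arm, was 4.94-fold higher, and Dnah3 stayed below background on all 8 arrays.

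Dnah7b, Dnah9, Dnah11 and Dnai2 differed by 0.56, 1.06, 0.51 and 0.89 in E-IAAPs on day 14. Dnah9 and Dnai2 thus lay just inside and just outside the 2-fold line. Dnah7b has near-identical copies in the mouse, and which of them a probe reads was not tested. Its brightest probe was 9.24, 8.40 and 9.37 in E-IAAPs and 10.74 in C-IAAPs. Its 3 dimmer probes were all 2-fold higher in E-IAAPs on day 14, the brightest of them with 4.11, 4.23 and 7.57.

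The radial spoke and central pair genes had a median difference of 3.94, and 7 of 8 were 2-fold higher in E-IAAPs on day 14 against 1 in E-AT2s. Rsph4a, a protein of the spoke head, was 4.36, 2.73 and 9.27 in E-IAAPs, 2.84, 4.48 and 4.04 in E-AT2s, 5.10 in C-AT2s and 8.67 in C-IAAPs. Rsph4a was thus high on 2 arrays, E-IAAPs of day 14 and C-IAAPs, the second right at its background level, and the day 14 difference was at least 6.01-fold.

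Rsph1, another spoke head protein, was 5.82, 6.01 and 10.14 in E-IAAPs and 8.12, below background, in C-IAAPs, with 3.10 to 5.04 in AT2s. The difference on day 14 was at least 11.0-fold. Hydin, a large protein of the central pair, was 4.83, 5.63 and 9.49 in E-IAAPs, at least 7.02-fold higher on day 14. Its signals of 8.62 in C-IAAPs and 3.75 to 4.58 in AT2s were all below background. Spag6, also of the central pair, was 4.90, 3.54 and 8.68 with 2.44 to 5.23 elsewhere, at least 3.99-fold higher. RefSeq now gives the transcript of the Spag6 probe the name Spag6l.

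In the same class Lrrc23, a spoke protein, was 8.67, 8.99 and 12.48 in E-IAAPs and 9.58 in C-IAAPs, and 5.19 to 5.83 in AT2s, a 12.6-fold difference on day 14. Spef2 was 6.39, 6.33 and 8.83 in E-IAAPs, at least 4.44-fold higher on day 14. Its E-AT2 signals of 3.30, 4.25 and 5.70 were all below background. Rsph9 was measured in AT2s too, at 7.67 to 8.50, and was 4.65-fold higher in E-IAAPs on day 14. Spag16 differed by -0.48 at its brightest probe, where all 8 signals were below background, whereas its other 3 probes differed by 2-fold or more, the brightest of them with 4.46, 3.48 and 8.27.

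All 9 genes of the doublet wall, ruler and nexin link were 2-fold higher in E-IAAPs on day 14 and 0 were in E-AT2s, with medians of 3.86 and -0.21. Tekt1, a filament protein of the doublet wall whose promoter is printed above, was 5.60, 4.98 and 10.49 in E-IAAPs, 2.47, 3.58 and 3.14 in E-AT2s, 3.34 in C-AT2s and 8.11 in C-IAAPs. Its day 14 signal was at least 14.0-fold higher and the sole one above background. Drc1, of the nexin link, was 4.07, 3.58 and 8.81 in E-IAAPs and 2.97 to 3.47 on the other 5 arrays, at least 4.38-fold higher. Ccdc40, part of the ruler that sets the spacing along the doublets, was 5.47, 5.50 and 10.37 and at most 5.54 elsewhere, at least 12.9-fold higher.

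Drc1 and Ccdc40 were thus above background on the day 14 array of E-IAAPs alone at these probes. Tekt2 was 3.90, 4.85 and 8.90 in E-IAAPs and 4.25 to 5.02 elsewhere, at least 4.66-fold higher. Ccdc153, a nexin link protein, was 8.86, 8.91 and 12.74 in E-IAAPs and 10.38 in C-IAAPs, against 4.85 to 6.70 in AT2s. Of the rest, Ccdc113 was at least 7.02-fold higher on day 14, and Cfap126, Ccdc39 and Tekt4 were 11.5-fold, 8.90-fold and 2.98-fold higher.

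Other ciliated cell genes included some that AT2s also expressed. Dynlrb2, a dynein light chain, was above background everywhere, at 11.00, 10.72 and 13.56 in E-IAAPs and 10.08 to 11.57 on the other 5 arrays, 6.50-fold higher on day 14. Ak7, an adenylate kinase of the axoneme, was 6.10, 7.02 and 11.15 in E-IAAPs, 1.86 to 4.04 in AT2s and 6.99 in C-IAAPs. Its 24.2-fold difference rests on earlier signals of which 1 of 2 was above background. Ak7 was thus above background on the E-IAAP arrays of days 7 and 14 alone.

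Cdhr4, a cadherin-related membrane protein, was 7.91, 7.14 and 11.11 in E-IAAPs and 9.62 in C-IAAPs, 11.9-fold higher on day 14. Pifo, known from the basal body, was 7.17, 7.87 and 10.77, 9.54-fold higher, and Tppp3, a tubulin-binding protein, was 5.37-fold higher. Cdhr3 differed by 0.42 at its brightest probe and by 2-fold or more at the other 4, 1 of which read 6.06, 7.78 and 11.17. Over all 87 probes of the 42 genes, 75 were at least 2-fold higher in E-IAAPs on day 14 and 0 were 2-fold lower. Of the 75, 55 were above background on day 14. The share over all probes of the array was not computed. Of the 7 genes whose brightest probe missed 2-fold, 4 had another probe that reached it (Cdhr3, Dnah7b, Dnai2 and Spag16), and Mcidas, Ccno and Dnah11 had none.

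Further cilia genes outside the 42 were listed in 4 groups of 102 genes, of which 99 were measured. In E-IAAPs 61 were 2-fold higher on day 14 and 2 lower, with a median of 1.66, beside 9.37% and 6.53% of all genes. In E-AT2s 8 were higher and 4 lower, with a median of 0.10, beside 5.67% and 7.28%. These counts include signals below background. Of 47 other axonemal genes 38 were higher, led by Cfap206 at 2.41, 3.03 and 7.71 and Cfap44 at 6.34, 6.55 and 11.14. Genes of dynein assembly and docking were higher in 7 of 15, led by Odad3 at 3.97, 4.98 and 9.26 and Dnaaf11 at 4.01, 3.30 and 7.58. Of 26 genes of intraflagellar transport, which all ciliated cells need including those with a single non-motile cilium, 13 were higher, led by Traf3ip1 at 8.34, 8.08 and 10.95 and Ift74 at 8.17, 8.75 and 10.85. The program that multiplies centrioles had 3 of 11, led by Ccdc78 at 6.33, 6.08 and 9.72 and Trp73 at 7.31, 8.35 and 9.50. Gmnc, which starts that program, stayed below background on every array. In this order of lists, 35 of 47, 7 of 15, 19 of 26 and 4 of 11 were above background in E-IAAPs on day 14.

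Markers of another airway cell type moved on the same array. Of 11 club cell markers 8 were 2-fold higher in E-IAAPs on day 14, with a median difference of 2.29. Among these 8, Krt15 and Aldh3a1 were below background on that array, at 6.06 and 6.78. The secretoglobin Scgb3a2 was 11.23, 11.90 and 14.94, and Aldh1a1 was 10.34, 11.07 and 14.40. Scgb1a1, the defining club cell gene, was between 14.44 and 16.00 on all 8 arrays, close to the upper end of the scale. Summed over the 11 markers, the level was 16.45, 16.75 and 17.66 in E-IAAPs and 15.78 to 16.14 in E-AT2s, with 16.55 in C-AT2s and 16.82 in C-IAAPs.

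Goblet cell markers were higher in 2 of 6, with Muc5b at 9.82, and basal cell markers in 3 of 6 (Krt5, Ngfr and Aqp3). Of the basal markers, the keratins Krt5 and Krt14 and also Ngfr were below background on day 14, and Aqp3 was at 10.69. Of 10 AT2 markers 0 were higher and 1 was lower, Sftpb, with 14.75, 14.39 and 13.44, and the median was -0.38. Of 13 alveolar macrophage markers 0 passed 2-fold either way in E-IAAPs on day 14, while 6 were higher in E-AT2s on that day. Markers of spermatids, which also build axonemes, were higher in 1 of 7, Prm1, which was below background at 4.73. The part of airway cells, or of the sex difference, in the levels of the 42 genes was not tested.

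**Figure D5:**
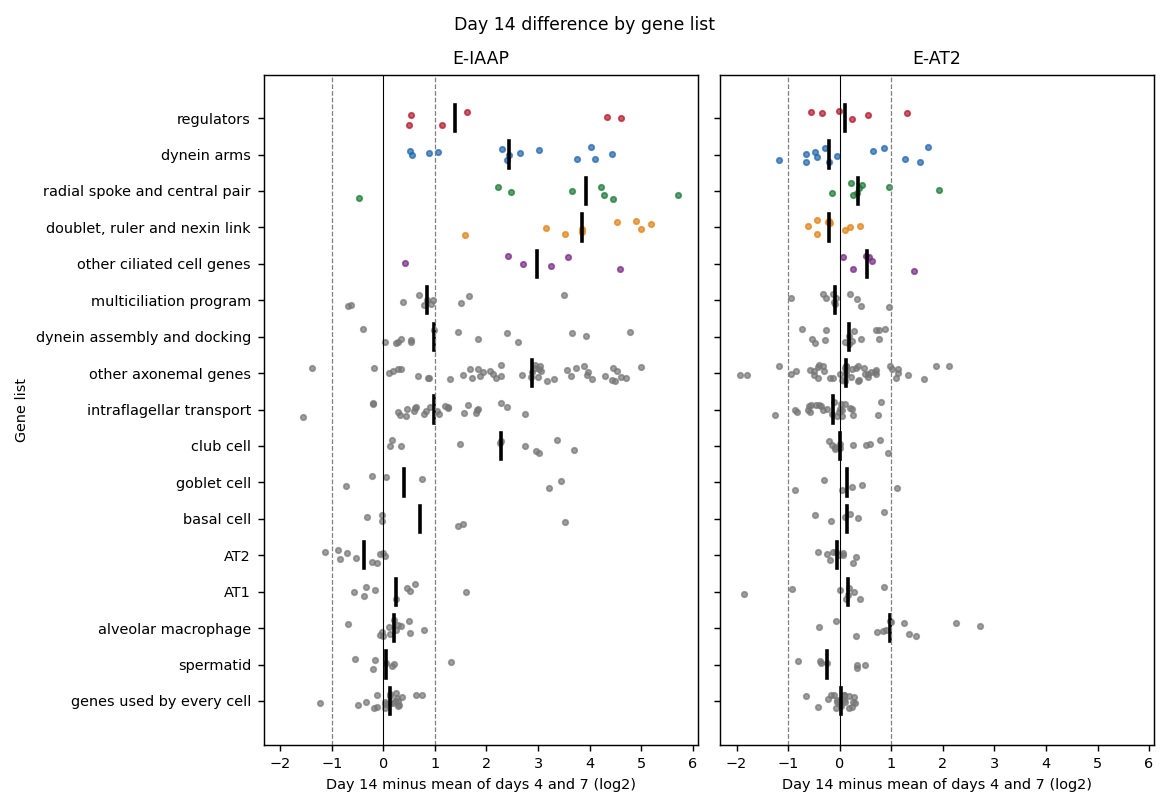
Each point is 1 gene and shows its day 14 difference (log2, day 14 minus the mean of days 4 and 7) in E-IAAPs (left) and E-AT2s (right), by list, with a black bar at the list's median and dashed lines at 2-fold. In E-IAAPs the medians of the 5 coloured classes of the 42 genes run from 1.38 to 3.94 and that of club cell markers is 2.29, whereas in E-AT2s the 5 medians run from -0.21 to 0.53.

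E-IAAPs also differed from E-AT2s before day 14. On days 4 and 7 alike, 12 of the 42 genes exceeded E-AT2s of the same day at least 2-fold in E-IAAPs, beside 4.13% of all genes. Only Foxj1, Dnah5, Lrrc23 and Ccdc153 of these 12 were above background on both E-IAAP arrays. The median difference between the populations was 0.56 on day 4, 0.90 on day 7 and 3.76 on day 14, and 26 of the 42 were higher in E-IAAPs on all 3 days, beside 15.5% of all genes. On both earlier days, 5 of 11 club cell, 12 of 13 alveolar macrophage and all 6 leukocyte markers were 2-fold higher in E-IAAPs as well, and 0 of 10 AT2 markers were.

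A limma fit over the 6 experimental arrays, with the day as a block, tested the population difference. It includes the day 14 array that entered the choice of the genes, so its calls are a description of these arrays, and without the arrays of day 14, or of day 4 or day 7, 0 of the 42 and 0 of all genes passed. With all 6 arrays it called 2 of the 42 genes higher in E-IAAPs, beside 1.30% of all genes, and 0 lower, beside 0.00411%. Dnah5 averaged 9.68 ± 2.34 over the 3 E-IAAP arrays and 4.02 ± 0.77 over the 3 E-AT2 arrays (mean ± SD over days), a log2 difference of 5.65 (standard error 0.68, limma adjusted p = 0.0424). As every E-AT2 signal was below background, the difference is at least 6.86-fold. Spef2 differed by 2.77 (standard error 0.33, limma adjusted p = 0.0434), at least 1.22-fold, and was above background on 1 of the 8 arrays, E-IAAPs of day 14.

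The log2 difference was above 0 for 39 of the 42 genes, and 15 had an unadjusted p under 0.05, all higher in E-IAAPs, beside 6.57% of all genes in that direction. Foxj1, at 5.64 (standard error 0.91), and Ak7, at 5.02 (standard error 0.80), missed the threshold with limma adjusted p of 0.0993 and 0.0951.

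Control IAAPs and control AT2s addressed whether Tomato-low cells carry these transcripts without the Fgfr2b deletion. On day 7, 22 of the 42 genes were at least 2-fold higher in C-IAAPs than in C-AT2s, beside 27.0% of all genes, and the median difference was 1.30. The C-IAAP signal was above the high background of that array for 9 of the 22. Of the sensory receptor genes, 39.5% were 2-fold higher too, with a median of 0.64, and so were 6 of 11 club cell, 10 of 13 alveolar macrophage and all 6 leukocyte markers. Among the 9 genes, Ccdc153 was 10.38 against 6.70, at least 11.0-fold, and Lrrc23 was 9.58 against 5.78, at least 6.31-fold.

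In the limma fit of all 8 arrays in 4 groups, Dnah9, an outer arm heavy chain, was higher in C-IAAPs and Rfx2 lower, beside 6.11% and 7.77% of all genes. Each side is 1 array here, and the spread comes from the days of the experimental groups. Both calls were lost with day as a term, with the mean of all probes, or without day 7, and that of Dnah9 also without day 4. Dnah9 was 9.26 in C-IAAPs and 6.76 in C-AT2s, a log2 difference of 2.50 (standard error 0.61, limma adjusted p = 0.0409) or at least 5.04-fold. The other 3 probes of Dnah9 were below background on the C-IAAP array, at 3.61 to 6.45. Rfx2 differed by -3.85 (standard error 0.73, limma adjusted p = 0.0199), with the C-IAAP signal below background, so no fold is given. Without the experimental arrays of day 14, 11 of the 42 genes were higher in C-IAAPs (Ak7, Ccdc153, Ccdc40, Cdhr4, Dnah12, Dnah9, Foxj1, Hydin, Lrrc23, Rsph1 and Tekt1) and 3 lower (Dnah2, Rfx2 and Rsph9), beside 3.44% and 4.19% of all genes. The C-IAAP signal was below background for 7 of these 11 and for all 3.

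E-IAAPs against C-IAAPs compared the genotypes within the Tomato-low cells. Per the study, E-IAAPs of day 14 carried mostly wild-type Fgfr2b. The fit called Rfx2 higher in E-IAAPs, beside 9.35% of all genes, and Dnah9 lower, beside 7.75%. The log2 difference of Rfx2 was 3.55 (standard error 0.59, limma adjusted p = 0.0110) and that of Dnah9 was -2.02 (standard error 0.50, limma adjusted p = 0.0367). Both calls rest on the same C-IAAP array as those against C-AT2s, where Rfx2 was below background, so no fold is given for it. Both were lost with day as a term, with the mean of all probes, or without day 7, and that of Dnah9 also without day 4. On day 7 itself the 42 genes had a median difference of -0.32 from C-IAAPs, while on day 14 E-IAAPs lay a median of 2.43 above the C-IAAP array of day 7. Without the arrays of day 14, Rfx2 and Dnah2 were higher and Dnah9, Hydin, Rsph1 and Rsph4a lower, beside 5.68% and 4.36% of all genes, with a C-IAAP signal below background for 2 of the 2 and 2 of the 4.

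E-AT2s against C-AT2s addressed the deletion in mature AT2s, where these genes were mostly below background. On day 7, 3 of the 42 genes were 2-fold higher in E-AT2s, beside 11.6% of all genes, and 6 were 2-fold lower, beside 10.1%. The limma fit called 0 of the 42 and 0 of all genes, with 0 of the 42 and 1608 of 24307 at an unadjusted p under 0.05. The interaction of population and genotype called Rfx2 (log2 4.21, standard error 0.84, limma adjusted p = 0.0443) and no other of the 42, beside 2.83% of all genes in that direction and 1.54% in the other. That call rests on single control arrays and on the C-IAAP signal of 4.03, below background. With day as a term, or with any 1 day left out, 0 of all genes passed.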

How the data were processed

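RNA of sorted cells was amplified, labeled with Cy5 and hybridised to 1-colour Agilent mouse arrays, 1 for each of 8 samples. The deposited values are log2 spot signals that, per the methods, the authors background-corrected with NormExp, using negative control spots, and then quantile-normalized in limma (version not given in the sources used here). Of 62976 spots, 43941 had 1 gene name and were used, and 19035 were left out. Names were updated through RefSeq accessions. The brightest spot on average stood for each of 24307 genes.

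Comparisons used limma 3.58.1 in R 4.3.3 with Benjamini-Hochberg adjustment over all genes (threshold 0.05), and Python 3.11.15 with pandas 2.3.3 and numpy 2.4.6. Days stood in for replicates, and each lone control array was assumed to vary like the experimental ones. The fits were run on simulated data in which the added change was equal on every E-IAAP array. The members differed mainly on the day 14 array, so that run does not bear on their calls. Members, lists and the background level were chosen with earlier results of these data known. Named in the text are the regulators, in each other class the 4 genes with the largest E-IAAP day 14 difference in signal, the members that passed a test, and the leading genes of other cilia lists; further genes were chosen after their values were seen. Alternatives were other centring, averaging all probes of a gene, repeated quantile normalization, the 12153 brighter genes, a probe of a RefSeq mRNA, raising signals below background to it, no day block or day as a term, and leaving out days. Precision is limited by the number of arrays.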

Additional observations from a re-analysis of the deposited data

Results flagged for a closer look

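Rfx2 was the 1 member whose difference between genotypes differed between populations, by limma's interaction term: the log2 value was 4.21 (standard error 0.84, adjusted p = 0.0443), from a signal of 4.03 in C-IAAPs, below that array's background, and 6.85 to 8.34 on the other 7 arrays. Under 10 alternatives the value ran from 2.18 to 4.73 and the adjusted p from 0.0193 to 0.238.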

How the results depend on the processing

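The number of members at least 2-fold higher on day 14 was 35 in E-IAAPs and 33 to 39 under the other centrings, probe choices and days that kept all 42 genes (33 and 37 with a single earlier day). In E-AT2s it was 6, and 4 to 8 under these. With signals below background raised to it, an alternative added after the values were seen, it was 32 and 0. Among the 12153 brighter genes, which hold 21 members, the counts were 17 and 1. The limma counts moved more, and the cause was not tested. Between E-IAAPs and E-AT2s, 2 members passed, 1 with the mean of all probes, 0 without the day block, and 0 to 0 when 1 day was left out. Between E-IAAPs and C-IAAPs, 2 passed, 0 with the mean of all probes or with day as a term, 4 among the brighter genes, and 0 to 6 when 1 day was left out. Between C-IAAPs and C-AT2s, 2 passed, 0 with the mean of all probes or with day as a term, and 0 to 14 when 1 day was left out. For the interaction, 1 passed, and 0 with the mean of all probes, with day as a term, with centring on genes used by every cell, or when 1 day was left out (0 to 0). The probe of a RefSeq mRNA, an alternative chosen after the values were seen, left 39 members 2-fold higher in E-IAAPs. No called member changed sign under any alternative. No paired analysis was possible because the labels' replicate number is 1 for every array, beyond the pairing of E-IAAPs and E-AT2s by day that the day block makes.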
